A study of Homo sapiens with 6 samples.

Results

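CASP1, CASP4, CASP6, GSDMD and IL18 were chosen by gene symbol, and all 5 were among the 17356 symbols listed in each library. They encode inflammatory caspases 1 and 4, executioner caspase 6, the pore-forming protein gasdermin D and the cytokine interleukin 18. RNA-seq libraries were made from C4-2B-ENZR, an enzalutamide-resistant derivative of the C4-2B prostate cancer cell line, after transfection with an siRNA against KIF15 (siKIF15, n = 3) or a negative control siRNA (NC, n = 3). Both groups therefore share the resistant background and the transfection, and the labels give neither the time after transfection, enzalutamide in the medium nor whether the line is a clone. Whether the replicate libraries stem from independent cultures is unstated, and the p-values then reflect library-to-library spread alone, possibly technical.

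Caspases are cysteine proteases that cut their substrates after aspartate. Caspase 1 is activated on inflammasomes, complexes of a sensor and often the adaptor ASC, whereas caspase 4 binds bacterial lipopolysaccharide in the cytosol. Both cut gasdermin D, whose freed amino-terminal part forms pores in the plasma membrane, a lytic death called pyroptosis, and caspase 1 also matures interleukins 1 beta and 18. Caspase 6 acts in apoptosis and is known for cutting lamin A.

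The coding stretch around the catalytic cysteine is shown for the 3 caspases because it holds a residue that each of them needs to cut its substrates. Each stretch was read from GENCODE 29 transcripts, 5′ to 3′ on the coding strand, and capitals mark the cysteine codon. CASP1 and CASP4 lie on chromosome 11 and CASP6 on chromosome 4.
CASP1: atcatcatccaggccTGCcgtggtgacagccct
CASP4: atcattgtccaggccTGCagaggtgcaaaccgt
CASP6: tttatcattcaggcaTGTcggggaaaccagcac
Over these 33 bases CASP1 and CASP4 were equal at 25, CASP1 and CASP6 at 20, and CASP4 and CASP6 at 16.

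The values are the signal deposited per gene and library, whose unit the sources used here do not state. The sequencing depth is unknown, so no counting interval can be given. The values of a library summed to 50360191 to 53157388 in siKIF15 and to 49460840 to 50063012 in NC. The siKIF15 libraries differed among themselves. Each library's deviations from the gene means of its own group were rank-correlated with GC content across 13416 genes. The correlation was -0.625 in siKIF15 3, 0.44 in siKIF15 1, 0.42 in siKIF15 2 and -0.25 to 0.157 in NC. With transcript length it was 0.376 in siKIF15 3, 0.06 in siKIF15 1, -0.474 in siKIF15 2 and -0.179 to 0.121 in NC. Deviations within a group balance out, so its correlations are not independent of each other. CASP1 and CASP4 kept their calls without siKIF15 3 (log2 changes 0.98 and 0.38, adjusted p = 0.00091 and 0.0029). That fit called 5077 of all genes, against 2978 with all libraries. It also kept siKIF15 1 and siKIF15 2, which deviated alike with GC content, so a kept call there says little about these deviations. Both genes also kept their calls without siKIF15 2 (log2 changes 0.98 and 0.35, adjusted p = 0.0023 and 0.02). For CASP4 the adjusted p was 0.046 without siKIF15 1, and the call ended without NC 3 (adjusted p = 0.06). KIF15 itself stood at 294.8, 333.1 and 363 in the libraries labelled siKIF15 and at 366.4, 403.6 and 319 in NC, which overlapped (log2 change -0.13 ± 0.14 SE, adjusted p = 0.57). A lower level of the target was thus not shown, and every direction given here refers to libraries by their label, siKIF15. All 10 prostate luminal markers were listed, of which 4 rose and 1 fell; KLK3, the gene for prostate-specific antigen, stood at 69391.8, 72705.8 and 64508.2 in siKIF15 and at 67009.5, 62252.7 and 65275.8 in NC.

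Among the 5 genes, CASP1 and CASP4 were higher in the libraries labelled siKIF15 and none fell. CASP1 rose by a log2 change of 0.99 and CASP4 by 0.37, while CASP6, GSDMD and IL18 did not pass the test. The test was limma on log2(signal + 1) over 16548 genes, with a Benjamini-Hochberg adjusted p under 0.05, and 2978 of them passed. That is 18.0% of the genes tested in either direction, 9.66% upward and 8.33% downward, against 2 of these 5 called upward and 0 downward. These 5 were chosen with earlier results of these data known, so their share cannot be read as an excess over all genes. Of all tested genes 1599 rose and 1379 fell. With each library scaled to the same total these counts were 1205 and 1753, and after a GC and length correction 1683 and 3043. CASP1 and CASP4 kept their calls in both.

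CASP1 had a signal of 242.4, 251.7 and 251.7 in siKIF15 and of 114.9, 134 and 127 in NC. Every siKIF15 library lay above every NC library. The means were 248.6 ± 5.4 in siKIF15 and 125.3 ± 9.7 in NC (SD, n = 3 each), a 1.98-fold difference (log2 change 0.99 ± 0.16 SE, 95% interval 0.64 to 1.33, adjusted p = 0.00055). Of the 16548 tested genes, 94.4% had a smaller log2 change. Since this is bulk RNA, more cells that carry the transcript and more transcript per cell cannot be told apart, here and below.

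CASP4, the cytosolic lipopolysaccharide receptor, had a signal of 1230.4, 1288.6 and 1234.9 in siKIF15 and of 1012.4, 965.2 and 918 in NC. The groups again did not overlap. Its difference was smaller, at 1.3-fold (log2 change 0.37 ± 0.09 SE, 95% interval 0.19 to 0.56, adjusted p = 0.0076), and its interval lay below that of CASP1. The call ended without NC 3, where the log2 change was 0.34 (adjusted p = 0.06).

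CASP6 had a signal of 609.8, 773.5 and 643.8 in siKIF15 and of 565.7, 557.1 and 492.5 in NC. No library of one group lay within the range of the other, but siKIF15 2 stood well above siKIF15 1 and siKIF15 3. The log2 change of 0.32 ± 0.12 SE (95% interval 0.07 to 0.58) did not pass after adjustment (adjusted p = 0.074; unadjusted p = 0.016). Without siKIF15 3 it was 0.35 and passed (adjusted p = 0.041), in a fit that called 5077 of all genes against 2978 with all libraries. Without any other single library it was 0.22 to 0.39 and did not pass (adjusted p = 0.11 to 0.27). Exons of CASP6 overlap those of MCUB, a mitochondrial calcium uniporter gene on the opposite strand. Whether counting used strand is unstated, so reads of the overlap cannot be told apart. MCUB averaged 75.1 ± 8.3 in siKIF15 and 88.9 ± 20.5 in NC, a log2 change of -0.22 (adjusted p = 0.58).

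For CASP1, CASP4 and CASP6 the groups did not overlap, with siKIF15 higher each time. The same was true of 18.3% of all tested genes, while 16.5% lay wholly lower in siKIF15, 34.8% in all.

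GSDMD, the common substrate of caspases 1 and 4, had a signal of 69.1, 63.7 and 55.8 in siKIF15 and of 46.3, 74.3 and 60.7 in NC. The siKIF15 libraries lay inside the range of the NC libraries. The log2 change was 0.08 ± 0.26 SE (95% interval -0.47 to 0.62, adjusted p = 0.87). Its sign turned to -0.10 under quantile normalization, to -0.0681 after a GC and length correction, and to -0.10 without NC 1.

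IL18 lay at the bottom of the scale in both groups. Its signal was 0, 3.1 and 0 in siKIF15 and 1.7, 0.1 and 1.9 in NC, rounded to 1 decimal. These values overlap, and no fold is given for them. At this level a difference was not detectable (adjusted p = 0.83), which does not show that the transcript was absent.

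**Figure D1:**
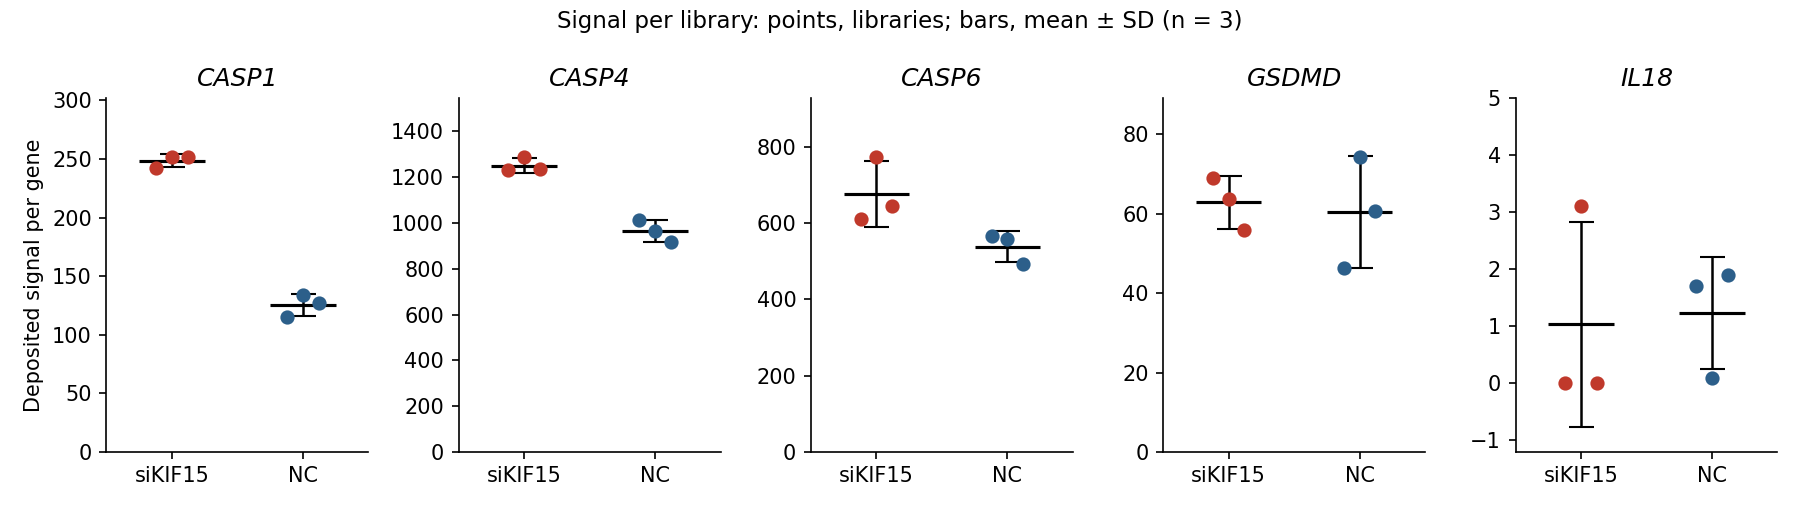
Deposited signal per gene (y axis, linear, own scale per gene) in the siKIF15 and NC libraries; points are libraries and black bars mean ± SD (n = 3). CASP1 lies at 242.4 to 251.7 in siKIF15 and at 114.9 to 134 in NC, GSDMD overlaps, and IL18 stays at or below 3.1 in every library.

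To set the levels of different genes side by side, each mean was divided by the median length of the gene's protein-coding transcripts in GENCODE 29. On this signal-per-kilobase scale the order in siKIF15 was CASP4 (715 ± 18.5), CASP6 (502 ± 64.1), CASP1 (234 ± 5.05), GSDMD (34.9 ± 3.72) and IL18 (0.946 ± 1.63; SD, n = 3 each). In NC the same order held, with CASP4 at 552 ± 27, CASP6 at 400 ± 29.7, CASP1 at 118 ± 9.1, GSDMD at 33.6 ± 7.77 and IL18 at 1.13 ± 0.925. Neighbours in this order differed by more than their spread in both groups. The lengths are an assumption, since which isoforms these cells use is unknown.

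Of 8 genes on a list of other caspases and CFLAR, 6 were measured, CASP10 and the regulator CFLAR rose, none fell and 4 did not pass. Their median log2 change was 0.2, against -0.0035 over all tested genes. CASP10, an initiator caspase of death receptor signalling, stood at 387.4, 330.3 and 466 in siKIF15 and at 217.3, 185.5 and 204.7 in NC (1.93-fold, log2 change 0.95 ± 0.15 SE, adjusted p = 0.00056), with no overlap.

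The initiator CASP9, the initiator CASP2 and CASP8 had log2 changes of -0.01, -0.15 and 0.2 (adjusted p = 0.97, 0.24 and 0.16). CASP5, the closest relative of CASP4, averaged 1.6 ± 1.5 in siKIF15 and 2 ± 3.3 in NC, at the bottom of the scale like IL18. CFLAR, which encodes the caspase 8 regulator FLIP, rose 1.21-fold (adjusted p = 0.028). Its call ended without siKIF15 1, NC 1, NC 2 or NC 3 (adjusted p = 0.1, 0.1, 0.13 and 0.084) and with libraries scaled to equal totals (adjusted p = 0.11).

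Among the other pore-forming genes, GSDMB rose. It stood at 191.5, 200.4 and 185.7 in siKIF15 and at 88.5, 73.4 and 120.7 in NC (2.07-fold, log2 change 1.05 ± 0.2 SE, adjusted p = 0.0022), with no overlap. GSDMB encodes a gasdermin that granzyme A is known to cut. NINJ1, which ruptures the plasma membrane of dying cells, averaged 8911.2 ± 883 in siKIF15 and 6976.5 ± 702.3 in NC (1.28-fold, adjusted p = 0.011). Its call ended without siKIF15 1 or NC 2 (adjusted p = 0.12 and 0.11). After a GC and length correction its log2 change was 0.15 (adjusted p = 0.042), against 0.35 as fitted. GSDMB and NINJ1 were the 2 rises among 6 measured genes of 8 symbols on this list. Of these symbols 2 are older names, and no gene fell (median log2 change 0.42). GSDME, another gasdermin gene, averaged 85.9 ± 6.9 in siKIF15 and 65.5 ± 9 in NC and did not pass (adjusted p = 0.26). GSDMA and GSDMC averaged 3.9 and 11.4 in siKIF15 and 8.1 and 2.2 in NC, near the bottom of the scale. GSDMC did not pass (adjusted p = 0.1) but did without siKIF15 2 (adjusted p = 0.021).

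CARD16, a gene next to CASP1 whose product holds only the recruitment domain that it shares with caspase 1, stood at 110.1, 120 and 101.2 in siKIF15 and at 57, 43.8 and 35.8 in NC. The difference was 2.43-fold (log2 change 1.28 ± 0.24 SE, adjusted p = 0.0018), with no overlap. Of the 50-base stretches in GENCODE transcripts of CASP1, 4.37% also occur in CARD16, and 10.6% of those of CARD16 occur in CASP1. How shared reads were counted is unstated, so a part of each value is uncertain. For CASP4, CASP6, GSDMD and IL18 the share found in any other gene was 0.198%, 0.656%, 0.0353% and 0.108%. CARD16 also overlaps exons of CARD17, which did not pass (adjusted p = 0.38).

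The other inhibitors of inflammatory caspases and inflammasomes gave 1 further call. Of 8 measured genes of 9, CARD16 rose, DPP8 fell and 6 did not pass (median log2 change 0.58, with 4 genes averaging under 10 in both groups). DPP8, a dipeptidyl peptidase that restrains the sensors NLRP1 and CARD8, averaged 1698.4 ± 263.6 in siKIF15 and 2107.9 ± 72.6 in NC (log2 change -0.32, adjusted p = 0.034). Its call ended without siKIF15 1, siKIF15 2, NC 1, NC 2 or NC 3 (adjusted p = 0.2, 0.11, 0.14, 0.12 and 0.098).

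Inflammasome sensors and adaptors moved both ways. Of 13 measured genes of 14, 2 rose, 1 fell and 10 did not pass, and 6 averaged under 10 in both groups (median log2 change -0.19). IFI16, a DNA sensor, stood at 185.5, 213.1 and 259.7 in siKIF15 and at 101.5, 71.5 and 137.9 in NC (2.16-fold, adjusted p = 0.0034). NLRP2 rose 1.21-fold (adjusted p = 0.025), and its call ended without each library except siKIF15 3 (adjusted p = 0.077 to 0.13) and with equal totals (adjusted p = 0.058). NEK7, a kinase that NLRP3 needs, fell by 0.36 on the log2 scale (adjusted p = 0.012), and its call ended without siKIF15 1, NC 1 or NC 2 (adjusted p = 0.13, 0.057 and 0.1). PYCARD, which encodes the adaptor ASC, stood at 0, 3.1 and 1 in siKIF15 and at 4.2, 6.3 and 5.7 in NC (adjusted p = 0.12). AIM2, another DNA sensor, stood at 1.7, 6.2 and 2.1 in siKIF15 and at 0 in each NC library after rounding to 1 decimal (adjusted p = 0.097). CARD8, a further sensor, stood at 456.3, 394 and 531.1 in siKIF15 and at 583.7, 538.7 and 533.4 in NC (log2 change -0.27, adjusted p = 0.16), and passed as lower without siKIF15 3 (log2 change -0.38, adjusted p = 0.022) and after a GC and length correction (adjusted p = 0.041). The values of PYCARD, AIM2 and CARD8 did not overlap between the groups, which was true of 34.8% of all tested genes. None of these genes passed in the main fit, though AIM2 did with a pseudocount of 0.1 (adjusted p = 0.05 after rounding).

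**Figure D2:**
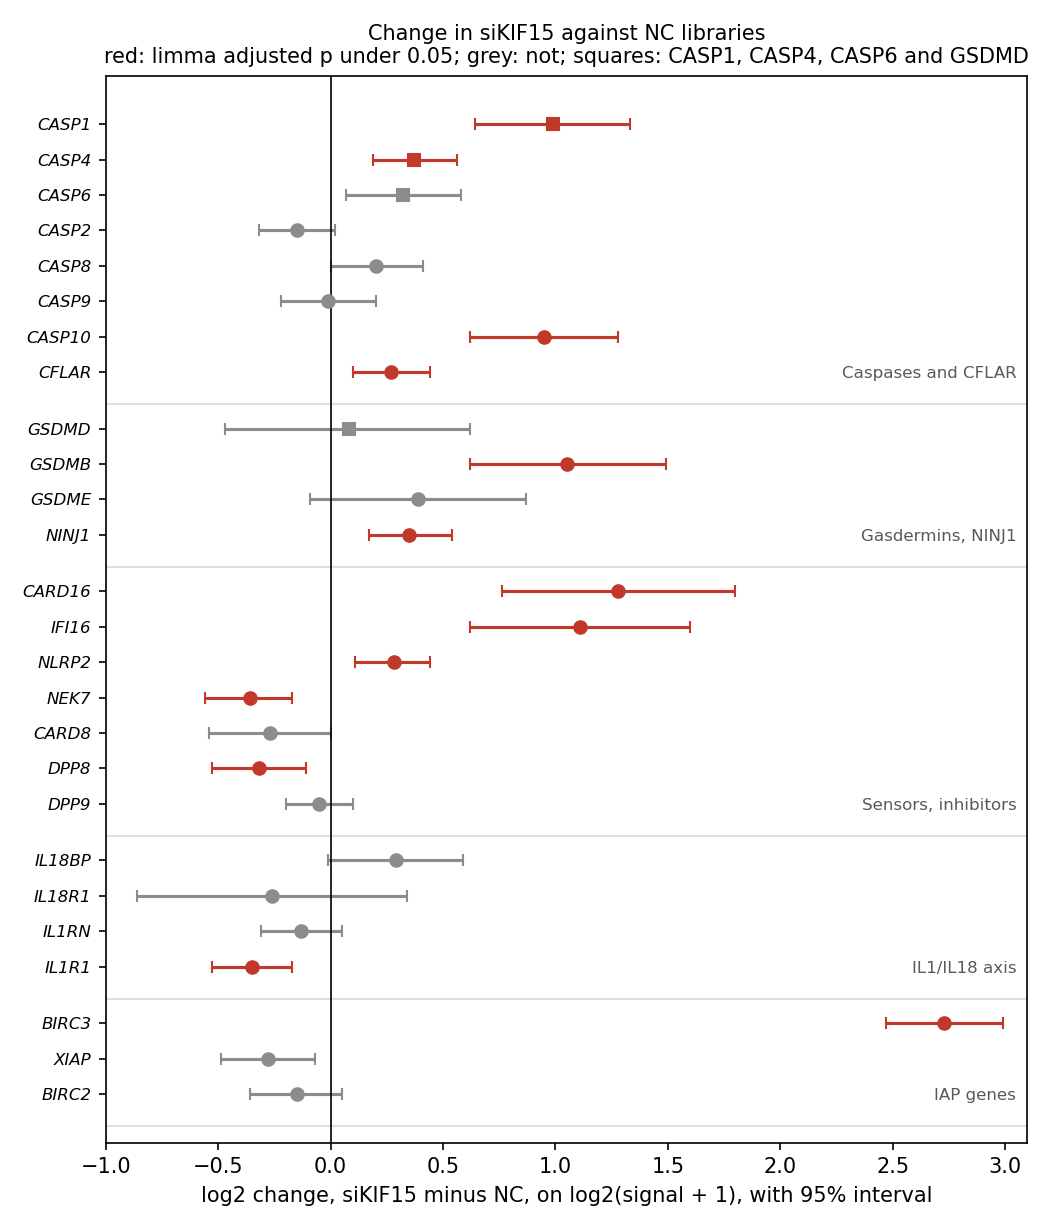
Log2 change of siKIF15 minus NC on the log2(signal + 1) scale (x axis) with its 95% interval, for CASP1, CASP4, CASP6 and GSDMD (squares) and related genes (circles); red marks an adjusted p under 0.05. CASP1, CASP10, GSDMB, CARD16 and IFI16 lie between 0.95 and 1.28, CASP9 and GSDMD lie near 0, and BIRC3 lies at 2.73.

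No ligand or inhibitor of the interleukin 1 and 18 family passed among 8 measured of 10 (median log2 change -0.15). IL1B, the other classical caspase 1 substrate, stood at 2.6, 2.1 and 6.2 in siKIF15 and at 10.3, 10.2 and 7.5 in NC (adjusted p = 0.13), and passed without siKIF15 3 (log2 change -1.61, adjusted p = 0.048). The IL18 inhibitor IL18BP averaged 426.1 ± 36.3 in siKIF15 and 349.6 ± 55.5 in NC (adjusted p = 0.17), and per kilobase its level was 272 ± 23.2 in siKIF15 and 223 ± 35.4 in NC, above that of IL18. The receptor antagonist IL1RN averaged 1470.5 ± 90.2 in siKIF15 and 1608.2 ± 86.7 in NC (log2 change -0.13, adjusted p = 0.33), and passed as lower after a GC and length correction (log2 change -0.24, adjusted p = 0.0099). Of 9 tested receptor and signalling genes of 10, IL1R1 alone passed (median log2 change -0.08). It averaged 1654.3 ± 172 in siKIF15 and 2103.3 ± 14.2 in NC (log2 change -0.35, adjusted p = 0.01), and its call ended without siKIF15 1, NC 2 or NC 3 (adjusted p = 0.082, 0.067 and 0.054). The interleukin 18 receptor chain IL18R1 stood at 46.5, 33.6 and 62.8 in siKIF15 and at 56.4, 59.8 and 50.1 in NC (adjusted p = 0.59).

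Of 8 apoptosome and caspase inhibitor genes, BIRC3 rose and none fell (median log2 change -0.07). BIRC3, a ubiquitin ligase of the inhibitor of apoptosis family, stood at 1834.1, 1674.3 and 2346.7 in siKIF15 and at 280.8, 303.3 and 287.1 in NC (6.64-fold, adjusted p = 1.8e-10). XIAP, another gene of that family, had a log2 change of -0.28 (adjusted p = 0.058). That change was -0.4 without siKIF15 3 (adjusted p = 0.00085) and 0.0025 after a GC and length correction.

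Of 12 genes on a list of executioner caspase substrates, which also holds the DNase gene DFFB, 4 rose and 2 fell (median log2 change 0.04). GSN, an actin-severing protein gene, rose 1.48-fold (adjusted p = 0.00043) and SPTAN1, a spectrin gene, rose 1.25-fold (adjusted p = 0.0035). LMNA, whose lamin A product caspase 6 cuts, averaged 12251.9 ± 911.2 in siKIF15 and 9734.9 ± 356.7 in NC (1.26-fold, adjusted p = 0.0048). Its call ended without siKIF15 1 or NC 2 (adjusted p = 0.059 and 0.053). After a GC and length correction its log2 change was 0.18 (adjusted p = 0.003), against 0.33 as fitted. DFFB, whose DNase is freed when executioner caspases cut its inhibitor, the DFFA product, is not itself such a substrate and fell by 0.45 on the log2 scale (adjusted p = 0.0075), a call that ended without NC 2 (adjusted p = 0.06). DFFA had a log2 change of -0.09 (adjusted p = 0.46). The calls of LMNB2 and PAK2 (log2 changes 0.2 and -0.26, adjusted p = 0.048 and 0.028) ended without each library except siKIF15 3 (adjusted p = 0.065 to 0.21 and 0.085 to 0.13). That of LMNB2 ended in 12 of the 16 alternatives, also with equal totals and under quantile normalization (adjusted p = 0.12 and 0.1). That of PAK2 also ended after a GC and length correction (log2 change -0.08, adjusted p = 0.22).

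Transcription factors linked to these genes were listed as well. Of 5 measured, IRF1 and IRF2 rose and none fell (median log2 change -0.06). IRF1, an interferon-induced factor, stood at 2517.2, 2632.6 and 2531.7 in siKIF15 and at 1154.8, 1078.7 and 1138 in NC (2.28-fold, adjusted p = 2.5e-08). IRF2, which is known to drive GSDMD transcription, averaged 1015.2 ± 45.1 in siKIF15 and 809.4 ± 33.7 in NC (log2 change 0.33, adjusted p = 0.024). The IRF2 call ended without siKIF15 1, NC 1, NC 2 or NC 3 (adjusted p = 0.089, 0.11, 0.058 and 0.095) and with equal totals (adjusted p = 0.074).

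**Figure D3:**
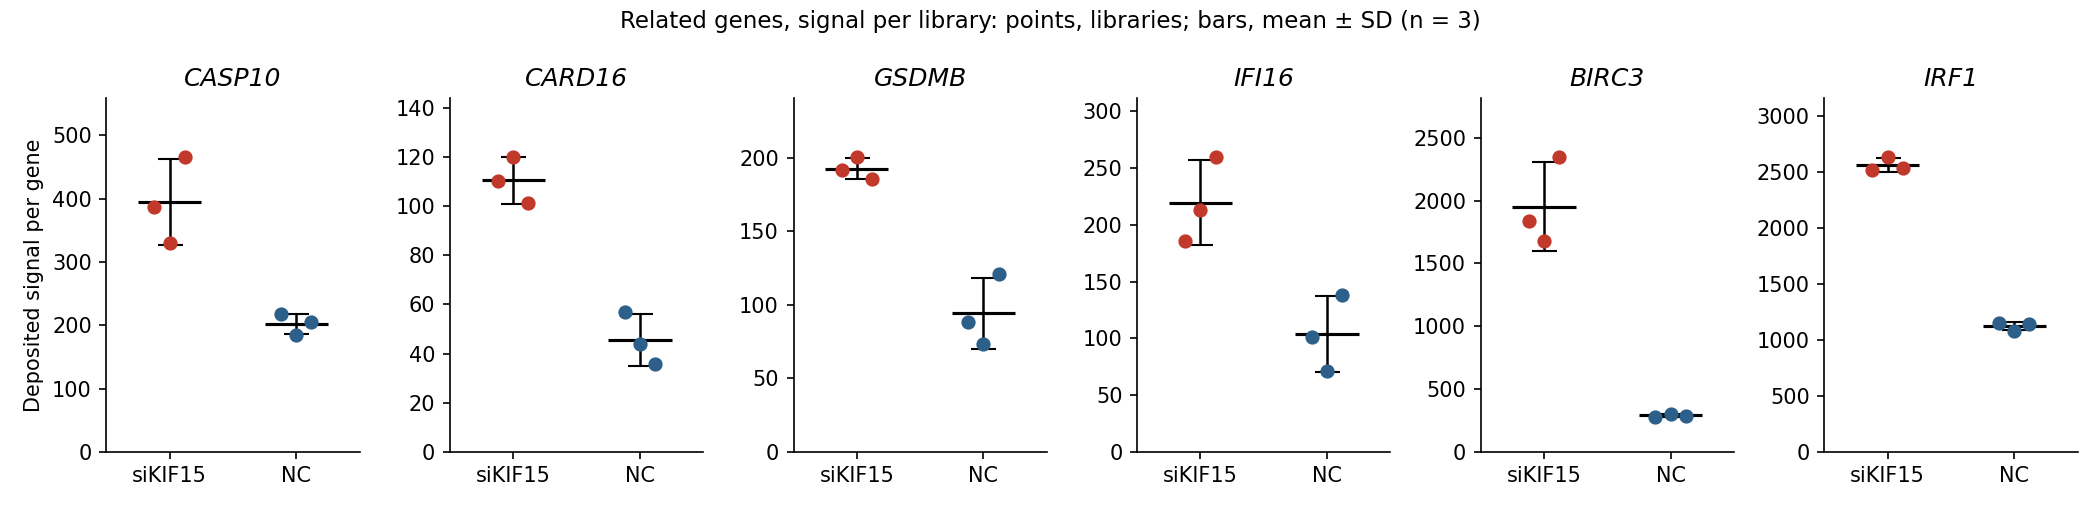
Deposited signal (y axis, linear, own scale per gene) of 6 related genes in the siKIF15 and NC libraries; points are libraries and black bars mean ± SD (n = 3). In each panel the siKIF15 libraries lie above the NC libraries, as for BIRC3 with means of 1951.7 in siKIF15 and 290.4 in NC.

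RefSeq promoter windows (GRCh38.p14, 250 bases before to 50 after the start) were at hand for 2 of the 5 genes, CASP4 and CASP6. They are shown because no window was at hand for the other genes of the 5, and because an interferon-type motif was looked for in them. CASP4 passed the test and CASP6 did not, but their log2 changes were close (0.37 ± 0.09 SE and 0.32 ± 0.12 SE). The stretches therefore do not set a changed gene against an unchanged one. The deposited files hold no coordinates. Only the 250 bases before the start are printed, 5′ to 3′ on the strand of the gene. The CASP4 stretch is chr11:104968575-104968824 and the CASP6 stretch chr4:109703446-109703695, both on the minus strand.
CASP4: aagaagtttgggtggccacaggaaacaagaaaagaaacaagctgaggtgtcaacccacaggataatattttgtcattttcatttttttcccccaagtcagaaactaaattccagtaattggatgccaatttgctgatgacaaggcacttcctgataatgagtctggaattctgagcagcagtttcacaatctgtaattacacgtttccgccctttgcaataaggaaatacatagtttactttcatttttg
CASP6: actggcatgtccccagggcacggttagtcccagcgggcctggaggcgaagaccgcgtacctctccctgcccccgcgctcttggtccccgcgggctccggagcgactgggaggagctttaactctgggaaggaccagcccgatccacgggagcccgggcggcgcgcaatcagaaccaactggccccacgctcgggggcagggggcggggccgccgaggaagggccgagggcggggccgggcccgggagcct
GC content was 38% in the CASP4 stretch and 74% in the CASP6 stretch. Neither 300-base window held the core of the interferon-stimulated response element on either strand, in the form GAAA, any 2 bases, GAAA, nor the gamma-activated site core TTCNNNGAA, so no letter is in capitals. These motifs occur in 3.65% and 7.88% of the 27305 promoter windows of the same length. A missing match says only that these letters are not in this window.

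Over 11384 genes averaging 100 or more, those closest to each gene were found by the Euclidean distance between their 6 log2 values, each taken relative to the gene's NC mean. Among the closest to CASP1 was the ubiquitin ligase gene UBE3B (distance 0.132). Closest to CASP4 were CD163L1 (0.073) and VPS26C (0.077), and closest to CASP6 were MAP6D1 (0.104) and COX7B2 (0.11). MAP6D1 and COX7B2, like CASP6, did not pass with all libraries (adjusted p = 0.18 and 0.093). COX7B2 passed without siKIF15 3 (adjusted p = 0.04), and MAP6D1 passed in no alternative. Both were picked for values like those of CASP6, so like behaviour follows from the choice. MEGF6 (0.168) and GAS1 (0.22) lay closest to GSDMD. The closest to IL18, PRAMEF8 and U2AF1L5, lay at 1.407 and 1.506. IL18 did not exceed 3.1 in any library, far below the mean of 100 asked of the genes compared, so its neighbours describe little. PRAMEF8 and U2AF1L5 also belong to families with near-identical copies. These distances describe 6 libraries in 2 groups and were not tested.

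CASP1, CASP4 and GSDMD are abundant in monocytes and macrophages, so markers of those cells were read beside them. Of 10 markers 8 were listed, CD68 rose and 7 did not pass (median log2 change -0.12). The summed signal of the list was 2936.4 to 3624.2 in siKIF15 and 1703 to 1939.1 in NC. CD68, a lysosomal protein gene, held nearly all of it, with means of 3264.4 ± 341.3 in siKIF15 and 1783.3 ± 133.2 in NC. PTPRC, the common leukocyte antigen, was at 0 in each siKIF15 library and at 0.8, 0.1 and 3.8 in NC, rounded to 1 decimal, and CD163 did not exceed 2.1 in any library. CD14 reached 32.2 in siKIF15 and 32 in NC, CSF1R reached 22 in siKIF15 and 18 in NC, and ITGAM reached 22.8 in siKIF15 and 15.8 in NC, with overlapping groups for all 3. LYZ and LST1 did not exceed 8.6 in any library. Of 8 lymphocyte markers 3 were listed and none passed, with summed signals of 21 to 34.3 in siKIF15 and 19.9 to 30.1 in NC. Of 6 keratinocyte markers, KRT10, KRT14 and IVL rose, none fell, and the summed signal was 2336 to 2882.6 in siKIF15 and 1785.9 to 2291 in NC. KRT10 held most of this sum. KRT14 stood at 54, 51.1 and 33.2 in siKIF15 and at 2.2, 18.1 and 9.5 in NC (5.38-fold, adjusted p = 0.0052), a larger fold than that of CASP1. IVL stood at 95.9, 74.3 and 97.9 in siKIF15 and at 45, 30 and 29.3 in NC (2.56-fold, adjusted p = 0.0025), and kept its call in all 16 alternatives. KRT5, KRT1 and LOR did not exceed 5.2 in any library. The calls of KRT10 and KRT14 ended without siKIF15 1 (adjusted p = 0.2 and 0.086), and that of KRT10 also without siKIF15 2, NC 1 or NC 3 (adjusted p = 0.052, 0.16 and 0.11) and with equal totals (adjusted p = 0.073). The part of CD68 and of the keratinocyte genes in the change of CASP1 and CASP4 was not tested.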

How the data were processed

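Total RNA was made into Illumina libraries, per the labels' protocols, which state neither selection nor strand. Bowtie 0.12.2 is named in the submitters' processing notes together with mm8 and mm9, which are builds of the mouse genome; the cells are human, and a human build is not given in the sources used here. For each gene symbol the authors deposited 1 signal value per library; the unit is not stated, and from the values alone they may be counts adjusted to a common library size; reads were not recovered and depth is unknown.

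Libraries were grouped by title. Genes averaging 1 or more in either group were fitted with limma 3.58.1 (R 4.3.3; intensity trend, all 6 libraries, no covariate) on log2(signal + 1), adjusted over all tested genes, and tested on simulated data. Log2 changes are siKIF15 minus NC, and understate those of low genes. The 5 genes and all lists were chosen with earlier results of these data known. Every listed gene could be named, with values for up to 4 called genes a list and for lower or uncalled genes chosen after their values were seen. A few listed genes are not reported here and are left out of the counts of their lists. Symbols turned into calendar dates stayed in the fit unnamed. Alternatives changed the pseudocount, filter, scaling, variance model, replicate block and libraries; the regression on GC content and transcript length was added after seeing the data.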

Additional observations from a re-analysis of the deposited data

How the results depend on the processing

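Over all 16 alternatives CASP1 kept its rise and its call (log2 change 0.89 to 1.03, adjusted p = 6.8e-05 to 0.011). The count of the 5 genes called was 2 except for the fits that leave out single libraries, where it was 1 to 3. In those fits the log2 change was 0.34 to 0.41 for CASP4, 0.22 to 0.39 for CASP6 and -0.10 to 0.24 for GSDMD, and the count of all genes called was 1184 to 5077, against 2978 with all libraries (1184 and 5077 without siKIF15 1 and siKIF15 3, and 1802, 1366 and 1723 without NC 1, NC 2 and NC 3). That count was 1070 for limma without the intensity trend and 4726 after the GC and length correction, where GSDMD was at -0.0681; under quantile normalization GSDMD was at -0.10. The cause of these differences was not tested. Of 28 other listed genes called, 10 kept their call in each alternative and 18 lost it in at least 1; limma without the trend ended 17 of the 28, among them CFLAR, NINJ1, NLRP2, NEK7, DPP8 and IFI16 (adjusted p = 0.12, 0.15, 0.13, 0.15, 0.19 and 0.081).

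KLK3 turned to -0.14 after the GC and length correction and passed as lower there (adjusted p = 0.018), against 0.09 (adjusted p = 0.49) as fitted. Signs also turned for XIAP, at 0.0025 in the same fit, CASP9 at 0.010 under quantile normalization and CASP5 at -0.0164 with a pseudocount of 10. Without single libraries the ranges were -0.28 to 1.1 for CASP5, -0.057 to 0.0418 for CASP9, -0.0426 to 0.22 for MEGF6, -0.21 to 0.13 for GAS1, -0.51 to 0.19 for PRAMEF8 and -1.59 to 0.010 for U2AF1L5. IL18 gave no value at a minimum mean of 10.

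Same-numbered libraries did not deviate together (correlations 0.033, -0.057 and 0.015 for numbers 1, 2 and 3), and siKIF15 2 and siKIF15 3 correlated best with another number, so the numbers were not read as pairing. With the replicate number as a block 3184 genes were called, and CASP1 and CASP4 kept their calls (adjusted p = 6.8e-05 and 0.0085). The block ended the calls of LMNB2 and TMPRSS2 (adjusted p = 0.071 and 0.063), and GSDMC and XIAP passed under it (adjusted p = 0.034 and 0.021).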
